A study of Mus musculus with 12 samples.

Results

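*Fcer1g*, *Fcgr1*, *Fcgr2b*, *Fcgr3* and *Fcgr4* are the genes of the classical mouse receptors for the Fc part of IgG, together with the signalling chain that most of them share. Their members in these data are the ChIP-seq peaks that the authors' annotation names for 1 of these 5 genes, which were 20 of the 26706 Rpb2 peaks and 20 of the 55862 H3K27Ac peaks. Rpb2 is a subunit of RNA polymerase II, so its ChIP-seq reads mark DNA occupied by the transcribing enzyme, and H3K27Ac, acetylation of histone H3 at a lysine of its tail, marks promoters and enhancers in use. Both were measured in microglia, the resident macrophages of the brain, sorted as CD11b+ CD45lo cells from 2-mo-old C57BL/6J mice. The groups were wild type (WT) mice and *Cx3cr1*-KO mice, in which eGFP disrupts both germline copies of the fractalkine receptor gene *Cx3cr1*, with WT and KO littermates from heterozygous crosses. Each library was a pool of cells from 3 mice of the same sex, and each genotype and mark had 1 pool with a female and 1 with a male label, so n = 2 pools of separate animals against 2 throughout. An antibody to CD16/CD32, the products of *Fcgr3* and *Fcgr2b*, was used to block the cells before staining and sorting. The comparison asks whether loss of *Cx3cr1* altered polymerase occupancy or histone acetylation at these genes.

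Fc gamma receptors bind the constant part of IgG on antibody-coated targets and, in macrophages, start phagocytosis and the release of inflammatory mediators. *Fcgr1* encodes a high-affinity receptor, *Fcgr3* a low-affinity and *Fcgr4* an intermediate-affinity activating receptor, and all of them need the chain encoded by *Fcer1g*, whose cytoplasmic activation motif recruits the kinase Syk. *Fcgr2b* encodes the inhibitory receptor, which carries its own inhibitory motif and recruits the lipid phosphatase encoded by *Inpp5d*. The balance of the activating receptors with *Fcgr2b* is known to set how strongly a macrophage answers immune complexes.

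In mm10, *Fcgr2b* (170958617 to 170976547, reverse strand), *Fcgr4* (171018920 to 171029761, forward strand) and *Fcgr3* (171051174 to 171064935, reverse strand) lie side by side within 106 kb of chromosome 1. *Fcer1g* (171229572 to 171234365, reverse strand) lies beyond *Fcgr3* on the same chromosome, and *Fcgr1* (96282909 to 96293969, reverse strand) lies on chromosome 3 next to a cluster of histone genes. The sequences before the start sites are shown because polymerase peaks sat on them for 4 of the 5 genes and because 3 of them share a stretch of bases. These are the 120 bases upstream of each start site used by the authors' annotation, from RefSeq on the GRCm38.p6 build, in the direction of the gene, with GAGGAA on either strand in capitals:
*Fcgr1* (chr3:96293970-96294089, reverse strand): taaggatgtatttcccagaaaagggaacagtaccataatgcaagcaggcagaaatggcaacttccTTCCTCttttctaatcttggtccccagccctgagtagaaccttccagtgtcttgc
*Fcgr3* (chr1:171059395-171059514, reverse strand): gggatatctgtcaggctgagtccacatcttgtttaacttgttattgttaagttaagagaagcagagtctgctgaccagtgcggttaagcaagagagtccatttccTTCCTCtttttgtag
*Fcgr4* (chr1:171018806-171018925, forward strand): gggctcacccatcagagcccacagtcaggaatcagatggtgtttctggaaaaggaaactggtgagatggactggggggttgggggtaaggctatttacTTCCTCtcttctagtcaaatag
*Fcgr2b* (chr1:170976072-170976191, reverse strand): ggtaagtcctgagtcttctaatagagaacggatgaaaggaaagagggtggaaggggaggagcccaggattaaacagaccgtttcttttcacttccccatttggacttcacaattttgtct
*Fcer1g* (chr1:171234350-171234469, reverse strand): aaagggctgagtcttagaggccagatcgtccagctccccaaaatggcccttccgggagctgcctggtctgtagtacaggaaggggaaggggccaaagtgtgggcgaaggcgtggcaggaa

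GAGGAA is the core of the motif bound by PU.1, a transcription factor that microglia need for their development. Both strands were searched from 250 bases before to 50 bases after each start. The core was present on the reverse strand of *Fcgr1* (bases −55 to −50 counted back from the start site), *Fcgr3* (−15 to −10) and *Fcgr4* (−22 to −17), which are the 3 activating receptors. It was not among these letters for *Fcgr2b* or *Fcer1g*. Of 32851 promoters of the same length, 28.3% held the core, so its presence in these windows is common. The longer GAGGAAGT, which contains the core, was in the *Fcgr4* window alone among the 5 (−24 to −17) and in 3.20% of all promoters. Other searched motifs were a C/EBP motif (TTGCNNAA, 10.8% of promoters) in *Fcgr3*, an IRF motif (GAAANNGAA, 8.56%) in *Fcgr4*, a STAT motif (TTCNNNGAA, 8.30%) in *Fcgr1* and a RUNX motif (TGTGGT, 16.8%) in *Fcer1g* and *Fcgr4*. No AP-1 motif (TGANTCA, 7.81%) or TATA box (TATAAA, 13.6%) was found in the 5 windows.

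Libraries held 10395804 to 44332626 reads. Peaks took up 11.2 to 15.1% of the reads in the 4 Rpb2 libraries and 61.1 to 65.3% in 3 of the H3K27Ac libraries, but 15.9% in the H3K27Ac library labelled WT female. The Rpb2 library labelled WT female held 136 reads in the 3 peaks on the Y chromosome, where the KO female library held 0 (which allows up to 3), so its reads go against its sex label. In H3K27Ac, the libraries labelled female held 12.2 (WT) and 19.7 (KO) CPM in the 6 peaks on the Y chromosome, beside 61.6 and 68.2 CPM in the male libraries. Fold changes of the member peaks described one by one are also given without a pool where they moved by much. The microglial marker genes *Tmem119*, *P2ry12*, *Sall1*, *Siglech*, *Gpr34*, *Olfml3*, *Csf1r* and *Fcrls* all had Rpb2 peaks. Of the lists for other cells that carry Fc receptors, neutrophils, B cells, T and NK cells, mast cells and border macrophages had no Rpb2 peak at any of their listed markers, and monocytes had 1 of 4 (*Plac8*, 30.0 to 48.0 CPM). In H3K27Ac, the neutrophil list summed to 29.4 CPM in the library labelled WT female and to 0 in the others, with no peak at *S100a8* or *Mmp8*. The border macrophage list had peaks at 5 of 6 markers and summed to 60.2 to 80.5 CPM, and the monocyte list had peaks at 2 of 4 (none at *Ly6c2* or *Chil3*) and 79.6 to 137.5 CPM. The B cell list had H3K27Ac peaks at 2 of 5 markers (42.7 to 53.4 CPM), the T and NK cell list at 2 of 5 (2.16 to 9.99 CPM) and the mast cell list at none. Their part in the results below was not tested. Of the lists for other brain cells, neurons and astrocytes had no Rpb2 peak, oligodendrocytes had 2 of 4 (128 to 163 CPM) and endothelium 1 of 3 (28.5 to 42.7 CPM), and in H3K27Ac the summed levels were 17.8 to 56.7, 0 to 13.8, 309 to 379.8 and 200.04 to 247.7 CPM in the same order. In pooled cells, fewer cells with a signal and a weaker signal per cell cannot be told apart.

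*Fcgr3* had the most polymerase at its start site of the 5 genes, and *Fcgr2b* the least of the 4 genes that had a peak there. CPM here stands for the reads in a peak scaled to a fixed total of reads in all tested peaks of the library, by TMM. Read counts are raw, in the order WT female, WT male, KO female, KO male. The *Fcgr3* start site peak (171059221 to 171059444) held 308, 393, 1589 and 566 reads, or 239 and 259 CPM in WT and 289 and 221 CPM in KO. The KO pools lay on either side of the WT pools. Its mean was 249.1 ± 13.6 CPM in WT and 255 ± 48.2 in KO (SD, n = 2), which as a log2 fold change (KO over WT, as throughout) was 0.03 (SE 0.21, adjusted p = 0.963 in edgeR's quasi-likelihood test). Without the library labelled WT female it was −0.03, and without the KO female −0.17.

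*Fcer1g*, the chain that the activating receptors need at the membrane, had the member start site with the lowest p. Its peak over the start (171234150 to 171234390) held 136, 172, 834 and 394 reads, or 106 and 113 CPM in WT and 152 and 154 CPM in KO. Both KO pools lay above both WT pools, and the pools of each genotype lay close together. The means were 109 ± 5.29 CPM in WT and 153 ± 1.44 in KO (SD, n = 2). This gave a log2 fold change of 0.48 (SE 0.24, unadjusted p = 0.0684, adjusted p = 0.445), which did not pass the threshold of 0.05. Across all alternatives of the fit, the value lay between 0.42 and 0.81, and its lowest adjusted p was 0.209. Summed over its 3 Rpb2 peaks, *Fcer1g* was at 121 and 135 CPM in WT and 175 and 188 CPM in KO. The log2 fold change of that sum was 0.50 (SE 0.22, unadjusted p = 0.0376, adjusted p = 0.424 over 10206 genes), the only 1 of the 5 gene sums with an unadjusted p under 0.05, where 5.55% of all genes had such a p and were higher in KO and 5.24% were lower.

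*Fcgr1*, the high-affinity receptor, had a pair of adjacent peaks at its start. The peak over the start was in the list of KO peaks alone (KO list). The second was in the list of WT peaks alone (WT list). The peak over the start (96293801 to 96294041) held 97, 127, 574 and 243 reads, or 75.4 and 83.6 CPM in WT and 104 and 94.8 CPM in KO. The KO pools lay above the WT pools, and KO over WT was 0.32 on the log2 scale (SE 0.28, adjusted p = 0.660). The second peak, 379 bp into the gene, was at 66.1 and 117 CPM in WT and 82.9 and 83.1 CPM in KO, where the KO pools lay between the WT pools.

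*Fcgr2b*, the inhibitory receptor, was the member whose start site peak was lower in both KO pools. The peak (170975905 to 170976127) held 71, 92, 186 and 117 reads, or 55.2 and 60.6 CPM in WT and 33.8 and 45.6 CPM in KO. The mean was 57.9 ± 3.79 CPM in WT and 39.7 ± 8.36 in KO (SD, n = 2). Its log2 fold change was −0.55 (SE 0.38, unadjusted p = 0.173, adjusted p = 0.583), and it lay between −0.78 and −0.20 across the alternatives, with a lowest adjusted p of 0.420. It was also the only Rpb2 peak named for *Fcgr2b*.

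*Fcgr4*, the intermediate-affinity receptor, had no Rpb2 peak at its start site or in its gene. The only Rpb2 peak named for it (170998417 to 170998696) lay 20370 bp upstream, between *Fcgr2b* and *Fcgr4*. It held 95, 58, 224 and 158 reads, or 73.9 and 38.2 CPM in WT and 40.7 and 61.6 CPM in KO. The WT pools lay further apart than the KO pools. The groups overlapped, and KO over WT was −0.13 on the log2 scale (SE 0.42, adjusted p = 0.922). The direction turned without the library labelled WT female (0.40) and without the KO female (0.14).

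**Figure D1:**
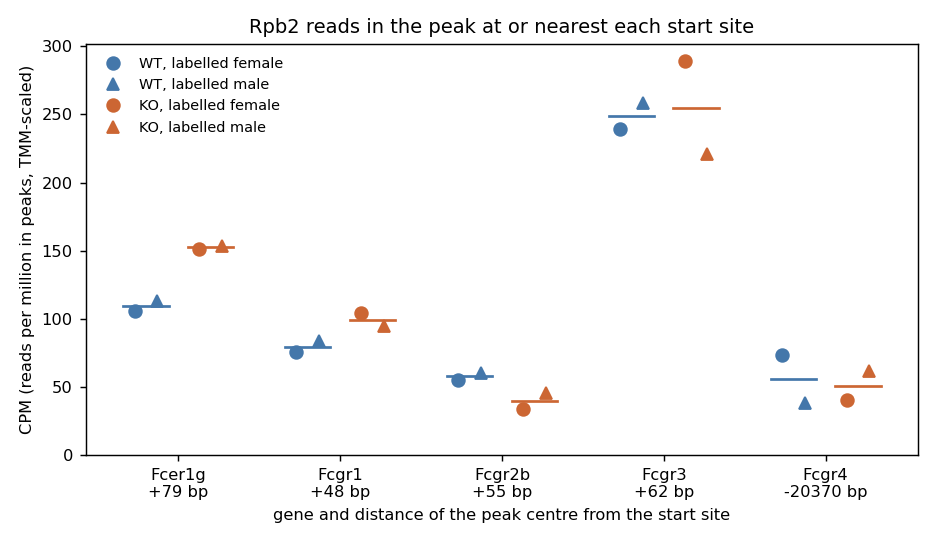
Rpb2 reads in the peak at or nearest each start site, in CPM on the y axis, for the 5 genes on the x axis with the distance of the peak centre from the start site. Each point is 1 pool (circles labelled female, triangles labelled male), and lines are the means of 2 pools. At *Fcer1g* the KO pools (152 and 154 CPM) sit above the WT pools (106 and 113 CPM), and at *Fcgr2b* they sit below.

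Per kb of peak, the order of Rpb2 levels over the 4 libraries was *Fcgr3* (986 to 1290 CPM per kb), *Fcer1g* (439 to 638), *Fcgr1* (313 to 433) and *Fcgr2b* (152 to 272). The ranges of neighbours in that order did not overlap, although those of *Fcer1g* and *Fcgr1* nearly met. This used the *Fcgr1* peak over the start, and the second peak, 379 bp into the gene, spanned 316 to 558 CPM per kb and overlapped *Fcer1g*. The distal *Fcgr4* peak (136 to 264 CPM per kb) could not be told apart from *Fcgr2b*. Among the 10125 Rpb2 peaks within 1000 bp of any start site, WT means per kb placed *Fcgr3* at percentile 98.9, *Fcer1g* at 88.1, *Fcgr1* at 78.7 and *Fcgr2b* at 69.4.

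*Fcgr3* had 10 of the 20 Rpb2 peaks, with 2 within 1000 bp of the start site used in the annotation, 5 further into the gene and 3 past its 3′ end. The peaks at the start held 44.3 and 51.5% of the reads of all 10 peaks in WT and 53.3 and 44.8% in KO. Gene body peaks held 16.3 and 17.1% in WT and 16.6 and 19.8% in KO. Those past the 3′ end held 39.4 and 31.4% in WT and 30.1 and 35.4% in KO. The genotypes overlapped in all 3 shares. In *Fcgr1*, the peaks at the start held 46.8 and 64.0% of the gene's reads in WT and 53.6 and 49.7% in KO, which overlapped the shares of *Fcgr3*, and in *Fcer1g* they held 90.1 to 95.1%.

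The downstream peak farthest from the start (171044867 to 171045085, 14418 bp away) was the second highest of the gene. It held 194, 175, 485 and 252 reads, or 151 and 115 CPM in WT and 88.2 and 98.3 CPM in KO. Both KO values lay below the WT values, with a log2 fold change of −0.51 (SE 0.26, unadjusted p = 0.0761, adjusted p = 0.459), which was −0.32 without the library labelled WT female. A nearer downstream peak (171049315 to 171049539) was at 50.5 and 19.1 CPM in WT and 52.2 and 61.2 CPM in KO. There the KO pools lay above both WT pools, and KO over WT was 0.71 on the log2 scale (SE 0.47, adjusted p = 0.562). This peak was in the KO list alone. Without the library labelled WT female the value was 1.55, and without the WT male 0.17. The library labelled WT female nearly equalled the KO female. The 5 gene body peaks of *Fcgr3* were at 2.33 to 39.8 CPM, with log2 fold changes from −0.45 to 1.26, each with an unadjusted p of at least 0.199.

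In *Fcgr1*, 5 Rpb2 peaks were named, with 1 of them 6812 bp upstream (96300673 to 96300890). This intergenic peak held 149, 89, 592 and 377 reads, or 116 and 58.6 CPM in WT and 108 and 147 CPM in KO. The pools overlapped, and the log2 fold change was 0.55 (SE 0.33, unadjusted p = 0.127, adjusted p = 0.531). The log2 fold change of this peak was 1.10 without the library labelled WT female, 0.14 without the WT male and 0.31 without the KO male. Of the 2 gene body peaks of *Fcgr1*, the peak at exon 5 was at 32.7 and 48.1 CPM in WT and 36.9 and 17.9 CPM in KO, and the intron 3 peak was at 12.4 and 5.93 CPM in WT and 17.8 and 15.2 CPM in KO. *Fcer1g* had 2 further peaks in intron 1, at 6.22 to 19.5 CPM.

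**Figure D2:**
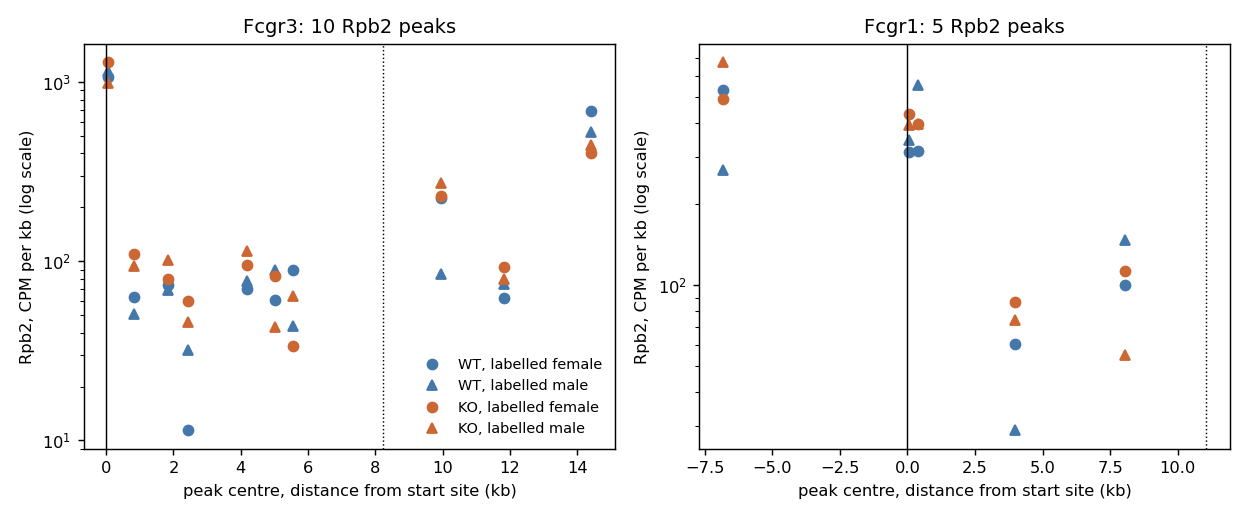
Rpb2 level per kb of peak (log scale, y axis) against the distance of the peak centre from the start site in kb (x axis) for *Fcgr3* and *Fcgr1*. Each point is 1 pool, the solid line is the start site and the dotted line the annotated 3′ end. In *Fcgr3* the start site peak (986 to 1290 CPM per kb) is followed in height by a peak 14418 bp downstream, past the 3′ end.

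Over the 20 Rpb2 member peaks, all of which passed the filter on low counts, 0 had an adjusted p under 0.05, where 0.00749% of the 26706 peaks did. With an unadjusted p under 0.05, there were again 0 in edgeR's quasi-likelihood test (6.12% of all peaks had such a p and were higher in KO, 6.06% lower). DESeq2 gave 0 at an adjusted p under 0.05, where it called 1022 peaks of the whole table. At an unadjusted p under 0.05 it gave 2, which were the start site peak of *Fcer1g* and the farthest downstream peak of *Fcgr3*. The share of all peaks with such an unadjusted p in DESeq2 was not computed. Both KO pools lay above both WT pools at 9 peaks, against a background of 25.7%, and below them at 2, against 21.7%. Of these 9, the start site peak of *Fcer1g* and the *Fcgr3* peak 11819 bp from its start were in both lists. The others were in the KO list alone, so they entered the table only through the group where they were high. Fold changes were above 0 at 12 peaks and below 0 at 8, with a median log2 fold change of 0.32, beside 0.04 over all peaks. The same limit holds for this median, since 11 of the 20 peaks were in the KO list alone, as were 53.0% of all peaks. Of the gene sums, 0 of 5 had an adjusted p under 0.05, where 0% of the 10206 genes did. Their median log2 fold change was 0.12, beside 0.02 over all genes, with 3 of 5 above 0, and 4 of 5 when the total mapped reads set the scale and the median of all genes moved to 0.27.

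Most of the polymerase peaks overlapped an acetylated stretch, as most Rpb2 peaks of the whole table did. Of the 20 Rpb2 peaks, 17 overlapped an H3K27Ac peak, where 76.6% of all Rpb2 peaks did. The 7 Rpb2 peaks within 1000 bp of a start site all overlapped 1. Of the 20 H3K27Ac peaks, 9 overlapped an Rpb2 peak, where 23.4% of all did. The KO list alone held 11 of the Rpb2 member peaks and the WT list alone 3, beside 53.0% and 13.7% of the whole table. The deeper sequencing of the KO Rpb2 libraries moves with these shares, and its part in them was not tested. Of the 20 H3K27Ac member peaks, the KO list alone held 8 and the WT list alone 1, beside 29.1% and 33.3% of the whole table. In the map of the cluster, the stretch between *Fcgr2b* and *Fcgr4* held an H3K27Ac peak of 13775 bp (170994249 to 171008023), the widest named for any of the 5 genes. Only 260 H3K27Ac peaks of the table were wider. The distal *Fcgr4* Rpb2 peak lay inside it. The upstream *Fcgr1* Rpb2 peak likewise lay inside an H3K27Ac peak of 6229 bp.

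**Figure D3:**
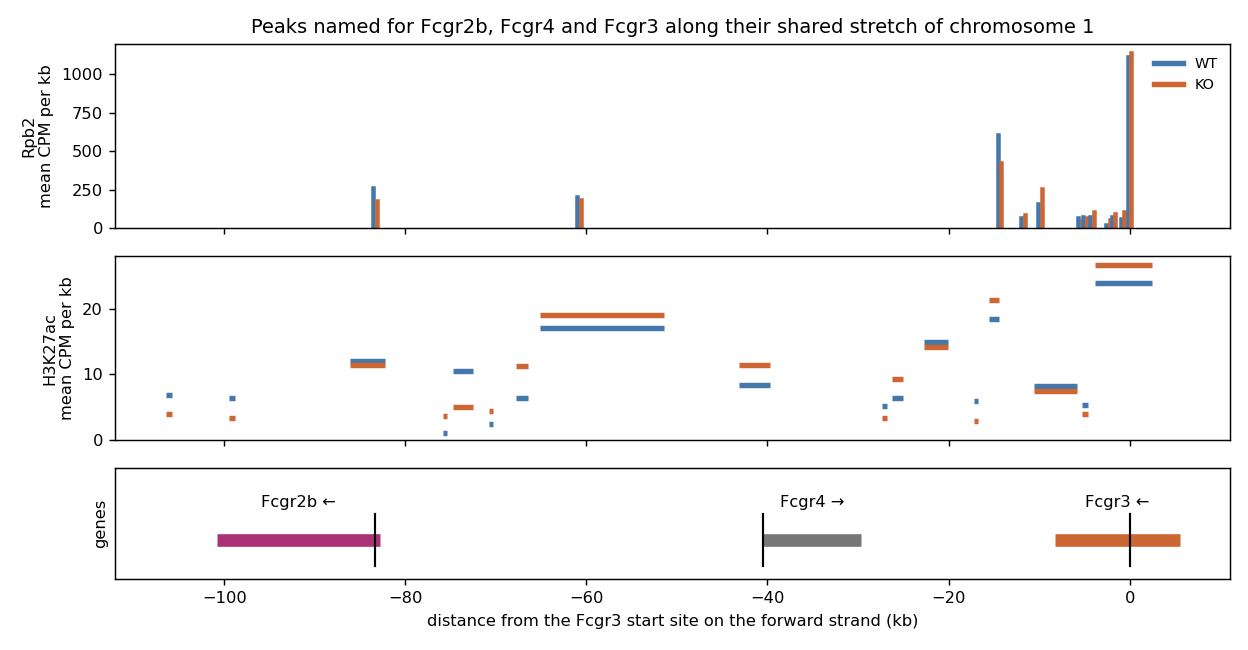
Mean Rpb2 (top) and H3K27Ac (middle) level per kb of each peak named for *Fcgr2b*, *Fcgr4* or *Fcgr3*, in WT and KO (2 pools each), against the distance from the *Fcgr3* start site in kb. The bottom row shows the genes, with black ticks at the start sites used by the annotation and arrows for the direction of transcription. The *Fcgr3* start site holds the highest bars of both marks, and *Fcgr4* carries H3K27Ac at its start but no Rpb2 peak.

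H3K27Ac was present at the start sites of all 5 genes, *Fcgr4* included, and none differed between genotypes past the threshold. In 13 of the 20 member peaks, the lowest of the 4 libraries was the one labelled WT female, which has the low share of reads in peaks, where that library was lowest at 26.1% of all peaks. The same library was the highest at 1 member peak and at 43.6% of all peaks. The microglial marker list was also lowest in it, at 3875 CPM beside 5581 to 6849 CPM in the others. The part of that library in the results below was not tested beyond leaving it out. The 5 genes together took 0.0806% of the peak reads of that library, and 0.108 to 0.132% in the other 3.

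At *Fcgr3*, the H3K27Ac peak over the start (171055599 to 171061884) held 378, 1208, 2132 and 2160 reads, or 107 and 193 CPM in WT and 162 and 173 CPM in KO. The KO pools lay between the WT pools, and KO over WT was 0.16 on the log2 scale (SE 0.30, adjusted p = 0.997 in edgeR's quasi-likelihood test). It turned to −0.21 without the library labelled WT female and was 0.65 without the WT male. *Fcer1g* had a single H3K27Ac peak (171230139 to 171236999), which spans its start site. It was at 120 and 164 CPM in WT and 172 and 174 CPM in KO. The KO pools lay above both WT pools, although the male pools were close. KO over WT was 0.28 on the log2 scale (SE 0.30, adjusted p = 0.911). It was 0.071 without the library labelled WT female and 0.53 without the WT male.

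The *Fcgr1* peak nearest the start covered the gene from end to end (96281984 to 96295438). It was at 149.7 and 239 CPM in WT and 197 and 228 CPM in KO, with the KO pools between the WT pools and KO over WT at 0.13 on the log2 scale (SE 0.31, adjusted p of 1). Here too the direction turned without the library labelled WT female (−0.17), and the value was 0.51 without the WT male. Upstream, the peak around the intergenic polymerase peak (96297791 to 96304019) was at 61.9 and 137 CPM in WT and 128 and 116 CPM in KO, again with the KO pools inside the WT range. Its log2 fold change was −0.18 without the library labelled WT female and 0.97 without the WT male. At *Fcgr4*, the start site peak (171016262 to 171019684) was at 18.4 and 38.8 CPM in WT and 31.8 and 46.4 CPM in KO. The groups overlapped, and the log2 fold change was 0.44 (SE 0.32, unadjusted p = 0.173, adjusted p = 0.811). The value was 0.0032 without the library labelled WT female and 1.09 without the WT male, and 0.69 and 0.15 without the KO female and the KO male. Its broad upstream peak was at 167 and 301 CPM in WT and 245 and 278 CPM in KO.

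*Fcgr2b* had an H3K27Ac peak at its start (170973299 to 170977119) at 38.7 and 53.2 CPM in WT and 42.3 and 44.7 CPM in KO, and KO over WT was −0.09 on the log2 scale (SE 0.30, adjusted p of 1), or −0.30 without the library labelled WT female and 0.17 without the WT male. Of its 4 upstream peaks, the 1 centred 9671 bp before the start (170984617 to 170986868), where the lincRNA gene *Gm10522* lies, had the lowest p of all member peaks. It held 54, 202, 93 and 194 reads, or 15.3 and 32.3 CPM in WT and 7.07 and 15.6 CPM in KO. The groups overlapped by a small margin, since the KO male lay just above the library labelled WT female, while within a label the KO pool lay below the WT pool, with log2 differences of −1.09 (female) and −1.04 (male). The log2 fold change was −1.08 (SE 0.41, unadjusted p = 0.00836, adjusted p = 0.811). With the sex label as a block the unadjusted p was 0.0120 and the adjusted p was 1. Without the library labelled WT female, the log2 fold change was −1.52. It was −0.43 without the WT male, −0.62 without the KO female and −1.75 without the KO male. A peak further upstream (170991631 to 170992992) was at 3.39 and 14.2 CPM in WT and 10.3 and 20.4 CPM in KO, higher in KO within each label by 1.54 and 0.51. Over all pools, KO over WT was 0.76 on the log2 scale (SE 0.51, adjusted p = 0.811). This value moved with each pool that was left out. It was 0.10 without the library labelled WT female and 2.17 without the WT male. It was 1.18 without the KO female and 0.20 without the KO male. The pair of upstream peaks thus had fold changes of opposite sign, and neither passed the threshold in the fit of all libraries. Of the remaining peaks of *Fcgr2b*, 4 of 7 were small, at 0 to 6.39 CPM, and 1 of these held 0 of 21134403 reads in the library labelled WT female, which allows up to 3.

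**Figure D4:**
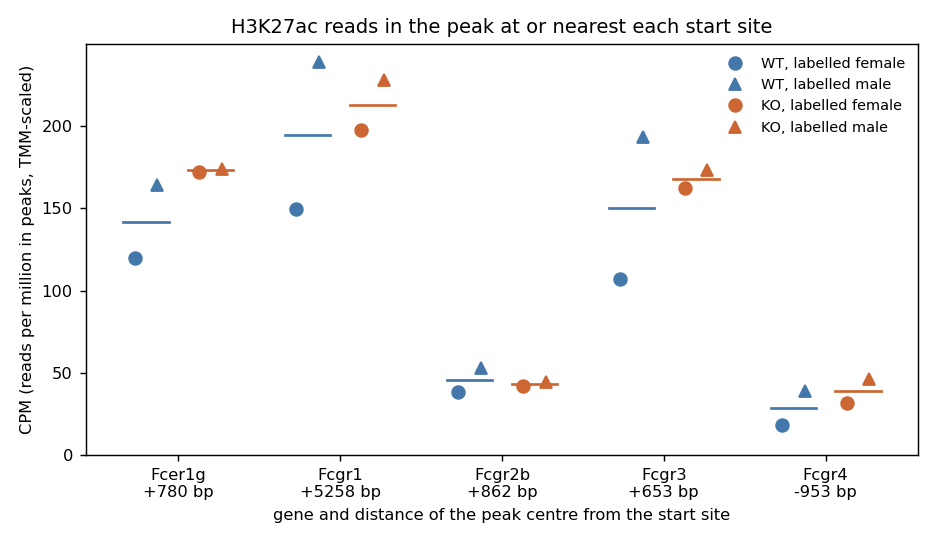
H3K27Ac reads in the peak at or nearest each start site, in CPM on the y axis, for the 5 genes on the x axis with the distance of the peak centre from the start site. Each point is 1 pool (circles labelled female, triangles labelled male), and lines are the means of 2 pools. The pool labelled WT female is the lowest of the 4 at each of the 5 genes, from 18.4 CPM at *Fcgr4* to 149.7 CPM at *Fcgr1*.

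Summed over all peaks of a gene, H3K27Ac was at 114 and 170.4 CPM in WT and 172 and 175 CPM in KO for *Fcer1g*. *Fcgr1* was at 202 and 391 CPM in WT and 324 and 346 CPM in KO. *Fcgr3* was at 141 and 299 CPM in WT and 218 and 249.8 CPM in KO. *Fcgr4* was at 213 and 418 CPM in WT and 320.3 and 385 CPM in KO, and *Fcgr2b* at 60.7 and 119 CPM in WT and 68.0 and 90.7 CPM in KO. In the last 4, both KO pools lay between the WT pools. Their log2 fold changes ran from −0.19 (*Fcgr2b*, SE 0.29) to 0.28 (*Fcer1g*, SE 0.26), with a lowest adjusted p of 0.953.

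The direction at these genes moved with the WT pool that was left out. Without the library labelled WT female, 4 of the 5 gene sums were below 0, with *Fcgr3* at a log2 fold change of −0.35. Without the WT male library, 5 of 5 were above 0, with log2 fold changes of 0.60 for *Fcer1g* and 0.73 for each of *Fcgr1*, *Fcgr3* and *Fcgr4*. The medians of all genes were 0.04 and −0.18 in these fits. Member peaks without the WT male were above 0 at 16 of 20, with a median of 0.61, beside −0.27 over all peaks. Without the KO female, 5 of 5 gene sums were above 0, and without the KO male 3 of 5.

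Over the 20 H3K27Ac member peaks, all of which passed the filter, 0 had an adjusted p under 0.05, where 0.0233% of the 55798 tested peaks did. Unadjusted, 1 had a p under 0.05, the *Fcgr2b* peak 9671 bp upstream, which was lower in KO (3.60% of all peaks had such a p and were lower, 1.35% higher). DESeq2 gave 0 at an adjusted p under 0.05, where it called 240 peaks of the whole table, and 1 at an unadjusted p under 0.05. The share of all H3K27Ac peaks with such an unadjusted p in DESeq2 was not computed. Both KO pools lay above both WT pools at 2 peaks, against a background of 14.3%, and the groups overlapped at the others. The median log2 fold change was 0.14, beside −0.21 over all peaks, and 11 of 20 were above 0. Of the gene sums, 0 of 5 had an adjusted p under 0.05, where 0% of 16938 genes did, with 0 at an unadjusted p under 0.05 in both edgeR (0.951% of all genes higher, 5.53% lower) and DESeq2. Of the 5 sums, 4 were above 0, and 5 when the total mapped reads set the scale and the median of all genes moved from −0.11 to 0.63.

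**Figure D5:**
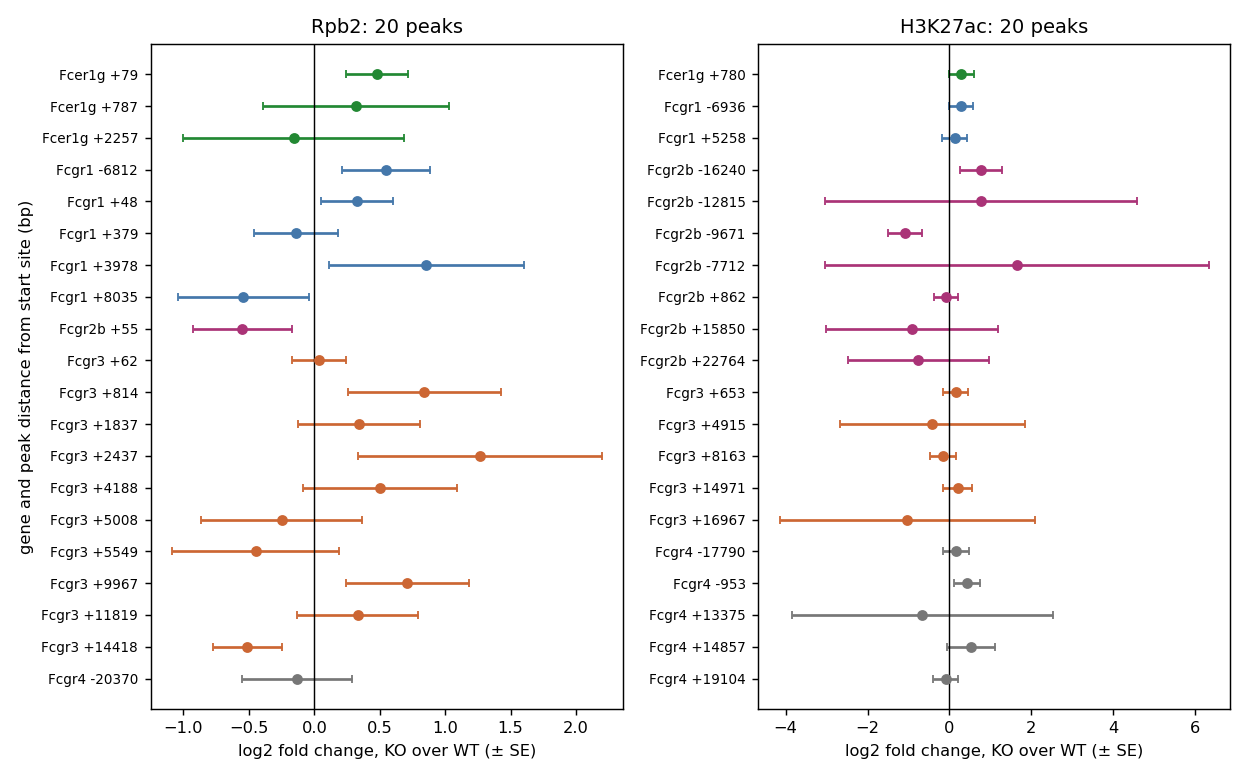
Log2 fold change of KO over WT with its SE (x axis) for the 20 Rpb2 and 20 H3K27Ac peaks of the 5 genes, each labelled by gene and distance from the start site in bp (y axis). Peaks of few reads have wide bars, and the *Fcgr2b* peak at −9671 bp (−1.08, SE 0.41) is the member with the lowest p.

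The level of the activating genes relative to *Fcgr2b* was read within each library, per kb of the start site peaks, where the scaling of libraries drops out. In Rpb2, *Fcgr3* was 4.32 and 4.25 times *Fcgr2b* in WT and 8.50 and 4.82 times in KO. *Fcer1g* was 1.77 and 1.73 times *Fcgr2b* in WT and 4.15 and 3.12 times in KO, and *Fcgr1* was 1.26 and 1.28 times in WT and 2.86 and 1.92 times in KO. In H3K27Ac, *Fcgr3* was 1.68 and 2.21 times *Fcgr2b* in WT and 2.33 and 2.36 times in KO. The KO pools lay above the WT pools in each of these ratios. The Rpb2 peak of *Fcgr1* used here was in the KO list alone, and the second peak at the start in the WT list alone. With that second peak in place of the first, the ratio was 1.28 and 2.05 in WT and 2.62 and 1.94 in KO. The groups then overlapped (exact permutation p = 0.667, two-sided). All of these ratios share the *Fcgr2b* peak and were computed with the values of the peaks known. An exact permutation test gave p = 0.333 (two-sided) for each of the others, the smallest that 2 pools against 2 allow.

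None of the genes that act with the receptors passed the threshold in either mark. Gene sums were tested for 41 of 51 listed genes in Rpb2 and for 44 in H3K27Ac, and 0 had an adjusted p under 0.05 in edgeR or in DESeq2. Unadjusted, 2 were higher and 1 lower in KO in Rpb2, and 0 were higher and 1 lower in H3K27Ac, where 5.55 and 5.24% of all genes in Rpb2 and 0.951 and 5.53% in H3K27Ac had such a p, so the counts were near those of the background. Among the relatives of the Fc receptors (6 of 13 tested in each mark), *Fcrls*, a receptor-like gene typical of microglia, was at 544 and 554 Rpb2 CPM in WT and 372 and 490.5 in the KO pools (log2 fold change −0.35, SE 0.15, adjusted p = 0.380). *Trim21*, the cytosolic IgG receptor, was at 29.7 and 42.7 CPM in WT and 14.6 and 19.4 in KO (adjusted p = 0.475). In both genes the KO pools lay below the WT pools. In H3K27Ac, the lowest p values of that list were those of *Fcrla* (log2 fold change 0.23) and *Fcrl1* (0.18), with adjusted p of 0.981 and 0.992.

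Among 13 kinases and adaptors that act on the activation motif, all tested, the median log2 fold change was 0.09 in Rpb2 and 0.19 in H3K27Ac. *Cbl*, a ubiquitin ligase, had an Rpb2 log2 fold change of −0.62 (adjusted p = 0.644). In H3K27Ac, *Fgr*, a Src family kinase, was at 42.9 and 49.5 CPM in WT and 65.4 and 64.3 in the KO pools (log2 fold change 0.48, adjusted p = 0.80), and *Syk*, the kinase that docks on the *Fcer1g* chain, was at 160 and 167 CPM in WT and 198 and 212 in the KO pools (log2 fold change 0.33, adjusted p = 0.945). The KO pools of *Fgr* and *Syk* lay above the WT pools.

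On the inhibitory side, where 6 of 7 genes were tested in Rpb2 and 7 in H3K27Ac, the median log2 fold changes were 0.25 and 0.22. *Ptpn6*, a tyrosine phosphatase, was at 194 and 199 Rpb2 CPM in WT and 258 and 272 in the KO pools (log2 fold change 0.43, SE 0.18, adjusted p = 0.398). *Inpp5d*, the phosphatase recruited by the *Fcgr2b* receptor, was at 1698 and 1577 CPM in WT and 1712 and 1951 in KO (0.16, adjusted p = 0.50). In H3K27Ac, the adaptor *Dok3* had a log2 fold change of 0.62 (adjusted p = 0.834) and *Inppl1* of 0.43 (adjusted p = 0.943). Among the effectors of phagocytosis (16 of 18 tested in Rpb2, 18 in H3K27Ac), the medians were 0.11 in each mark. *Pik3cg*, a PI3-kinase catalytic subunit, was at 225 and 238 Rpb2 CPM in WT and 283 and 360.2 in KO (0.47, SE 0.18, adjusted p = 0.336), and *Ncf1*, a subunit of the phagocyte oxidase, had a log2 fold change of 0.20 (adjusted p = 0.558). In H3K27Ac, *Vav3* was at 53.7 CPM in the library labelled WT female and at 0.333 to 2.75 CPM in the other 3, with an adjusted p of 0.421, and *Rac2* had a log2 fold change of 0.55 (adjusted p = 0.776). The medians over all genes tested were 0.02 for Rpb2 and −0.11 for H3K27Ac.

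Per kb of peak, the order of H3K27Ac levels was *Fcgr3* (17.0 to 30.7 CPM per kb over 4 libraries), *Fcer1g* (17.4 to 25.3), *Fcgr1* (11.1 to 17.7), *Fcgr2b* (10.1 to 13.9) and *Fcgr4* (5.37 to 13.6). The ranges of each neighbouring pair overlapped. Within every library, *Fcer1g* lay above *Fcgr1*, and *Fcgr1* above *Fcgr2b*. *Fcgr3* lay below *Fcer1g* in the library labelled WT female alone, and *Fcgr2b* below *Fcgr4* in the KO male alone. The 3 start site peaks with the highest Rpb2 per kb belonged to the 3 genes with the highest H3K27Ac per kb. Among the 9904 H3K27Ac peaks within 1000 bp of a start site, WT means per kb placed *Fcgr3* at percentile 95.8, *Fcer1g* at 90.9, *Fcgr2b* at 57.9 and *Fcgr4* at 34.5.

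Likeness of summed level was measured as the root mean square difference of gene sums on the log2 CPM scale over the 8 libraries. It was taken among 9613 genes with peaks in both tables. Nearest to *Fcgr1* were *Hps4* (0.10), *Cd81* (0.12) and *Havcr2* (0.15). *Fcer1g* was nearest to *Larp4* (0.13), *Trp53cor1* (0.16) and *Slc46a1* (0.17), and *Fcgr3* to *Ppp1r10* (0.16), *Erp29* (0.20) and *Calm2* (0.20). For *Fcgr2b* they were *BC035044* (0.17), *Efcab11* (0.17) and *Ubald2* (0.19), and for *Fcgr4* *Tgm2* (0.28), *2310008N11Rik* (0.29) and *St6gal1* (0.30). None of the nearest genes was another of the 5, whose closest pair was *Fcgr1* and *Fcgr3* (0.64). The sums depend on how many peaks carry a gene's name.

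Reads were assigned by unique mapping, which matters for genes that arose by duplication. Of the 51-base stretches in the Rpb2 member peaks, all occurred once in the genome in 15 of 20 peaks, start site peaks included, and at least 85.3% in the others. In the H3K27Ac member peaks it was 100% in 8 of 20 and at least 87.5% in the others. ChIP reads carry no strand, so reads of *Fcgr2b* cannot be told apart from those of its antisense neighbour *Gm38204*. A further H3K27Ac peak touching the longest *Fcgr3* transcript carries the name *Mir6546* and was not counted for *Fcgr3*.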

How the data were processed

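ChIP-seq for Rpb2 and H3K27Ac was analysed in 8 libraries; the 4 input samples were not used here. The authors aligned single-end reads of 51 nt with Bowtie 2 (mm10, unique alignments), called HOMER peaks, filtered them by the irreproducible discovery rate, and deposited the raw read counts of each library in the union of WT and KO peaks (versions not given in the sources used here). Groups and sex came from the labels. The columns of per-sample values left unused were 0.

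Peaks averaging 4 or more reads in either genotype entered edgeR 4.0.16 (R 4.3.3; TMM, quasi-likelihood test with legacy settings, genotype alone, Benjamini-Hochberg adjustment over the table, threshold 0.05). Reads of all peaks of 1 gene name were also summed and tested over all genes. SE is the log2 fold change divided by the square root of F, and single-library log2 ratios used a prior count of 2. The smallest level told apart from 0, 3 reads, is 0.0677 to 0.289 CPM of mapped reads, and reads without molecular identifiers make such limits cover counting error only. Peak positions fell inside all 21 chromosomes of GRCm38, whose GENCODE M21 annotation gave gene positions. Only the main fit of peaks was tested on simulated counts, which varied less between pools than the counts here.

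Members and lists were chosen with earlier results of these data known. Named in full were, per gene and mark, the peak with the most reads within 1000 bp of the start site, or otherwise the nearest, the 5 member peaks of each mark with the lowest p, the 3 genes most alike, and per pathway list the 2 genes with the lowest p. Some genes of the lists that met this rule or served as markers are not reported here. Alternatives were other scalings, DESeq2 1.42.0, the likelihood ratio test, the newer quasi-likelihood method, other filters, sex as a block, each pool left out, peaks near start sites and peaks of both lists. Figures used matplotlib 3.10.9 in Python 3.11.15.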

Additional observations from a re-analysis of the deposited data

Results flagged for a closer look

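Pools labelled female and male moved in opposite directions between KO and WT at several of the values above. The difference was not tested, since there is 1 pool per sex label and genotype. Log2 ratios are of KO over WT. For Rpb2, the *Fcgr4* gene sum was at −0.79 in the pools labelled female and 0.77 in the male pools, and its single peak, 20370 bp upstream, at −0.85 and 0.68. The *Fcgr1* peak 6812 bp upstream was at −0.11 and 1.32, and the *Fcgr3* start site peak at 0.27 and −0.23. All of these use the Rpb2 library labelled WT female, whose Y-linked reads go against its label.

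For H3K27Ac, the ratios of gene sums in the pools labelled female and male were 0.68 and −0.17 for *Fcgr1*, 0.16 and −0.39 for *Fcgr2b*, 0.63 and −0.26 for *Fcgr3*, and 0.59 and −0.12 for *Fcgr4*. Single peaks gave 0.40 and −0.066 at the *Fcgr1* gene, 1.04 and −0.24 at the *Fcgr1* peak 6936 bp upstream, 0.13 and −0.25 at the *Fcgr2b* start site, and 0.60 and −0.15 at the *Fcgr3* start site. In each, the pools labelled female were the pair with the higher ratio, and that pair holds the WT library with 15.9% of its reads in peaks. Of the 20 member peaks, 16 were higher in KO in the pools labelled female and 7 in the male pools. The shares of all H3K27Ac peaks with these directions were not computed, so the counts cannot be read as particular to the members.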

How the results depend on the processing

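The counts of Rpb2 and H3K27Ac member peaks and gene sums past the threshold stayed at 0 in each alternative that kept all libraries. Leaving out 1 pool gave 0 to 1 Rpb2 member peaks, 0 to 7 H3K27Ac member peaks, 0 to 4 H3K27Ac member gene sums and 0 to 28 H3K27Ac pathway gene sums, with the highest H3K27Ac counts without the WT male. With loess offsets 1 pathway gene sum passed (*Vav3*). A lone pool was assumed to vary like the other group. In the whole tables, Rpb2 calls went from 2 to 1022 with DESeq2, 924 with the likelihood ratio test, 272 with the newer method, 30 with at least 10 reads in every library, 8 in peaks of both lists, 4 with the sex label as replicate block, 1 with loess offsets, 0 near start sites and 0 to 2210 without a pool. H3K27Ac calls went from 13 to 240 with DESeq2, 1 with at least 10 reads in every library, 2 to 8157 without a pool, and 0 with total mapped reads, the newer method, peaks near start sites or of both lists. The sex block changed no call among the members; the labels pair sexes, not animals.

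Directions turned with total mapped reads at the *Fcgr4* Rpb2 peak (0.23) and sum (0.23) and at the *Fcgr2b* H3K27Ac start site peak (0.49) and sum (0.30). The *Fcgr4* Rpb2 peak was at 0.0032 with at least 10 reads in every library, and the *Fcgr1* Rpb2 sum at −0.35 over peaks of both lists. In H3K27Ac, the *Fcgr1* gene peak was at −0.043 with loess offsets and the *Fcgr3* sum at −0.011 with the newer method. Without a pool, log2 fold changes ranged from −0.53 to 0.40 and −0.48 to 0.48 (*Fcgr4* Rpb2 peak and sum) and −0.17 to 0.21 (*Fcgr3* Rpb2 start site). For H3K27Ac sums they ranged from −0.22 to 0.73 (*Fcgr1*), −0.58 to 0.38 (*Fcgr2b*), −0.35 to 0.73 (*Fcgr3*) and −0.24 to 0.73 (*Fcgr4*), and for peaks from −0.18 to 0.97 and −0.17 to 0.51 (*Fcgr1* upstream and gene), −0.30 to 0.17 (*Fcgr2b* start site) and −0.21 to 0.65 (*Fcgr3* start site). The cause was not tested. Of 401 values of log2 fold changes under alternatives, 365 kept direction and side of the threshold. With 2 pools a group and few reads at many peaks, differences within the SEs above were not detectable, and larger ones could be missed. One such value was −1.08 (SE 0.41) at the *Fcgr2b* H3K27Ac peak 9671 bp upstream, which did not pass with all libraries.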
